A study of Mus musculus with 6 samples.

Results

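The cytosolic ribosomal protein genes are the rows whose symbols name a protein of the large subunit (Rpl, Rplp) or of the small subunit (Rps, *Rpsa*) of the cytosolic ribosome. They were taken by symbol alone, as Rpl or Rps followed by a number and at most 1 of the letters a, l or x, together with *Rpsa*, *Rplp0*, *Rplp1* and *Rplp2*, and 81 of the 24421 rows matched, 49 of the large and 32 of the small subunit. Their levels were read in 6 bulk RNA sequencing libraries, 3 of cells labelled as secondary heart field-derived (SHF) and 3 of cells labelled as cardiac neural crest-derived (CNC). The column names of all 6 libraries carry the label WT. Every mouse was on the 129S6/SvEv background, carried the conditional *CAG-Sun1/sfGFP* tracer, and was killed at 8 weeks of age. The Cre allele was Mef2cSHF for the SHF group and *Wnt1-Cre2* for the CNC group. GFP-positive cells that excluded propidium iodide were sorted from the enzymatically dissociated root and ascending portion of the aorta, and the RNA, scaled to the number of sorted cells, was amplified by SmartSeq2. Cre marks the origin of a cell and not its type, and sorted fractions can hold smooth muscle cells, fibroblasts and other cells of that origin. The study describes its libraries as replicates of a lineage, and the labels do not say how many mice each one holds, so the p-values measure the spread between libraries.

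Each cytosolic ribosome has a large subunit, which forms peptide bonds, and a small subunit, which reads the messenger RNA. Each subunit carries nearly all of its proteins in a single copy, with the acidic stalk proteins as the known exception, so the members form a set whose protein products are needed in near equal numbers. Their messenger RNAs start with a tract of pyrimidines that places their translation under the control of mTOR. Mammalian genomes also hold many processed copies of these genes, most of them without function.

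Several rows of the matrix were near-identical in sequence to a member, and this bears on the values that follow. With blastn, the coding sequences of 80 members were compared with the transcripts of 23984 rows, and a copy row was defined as at least 95% identity over at least 80% of the coding sequence. By this definition, set after the values were seen, 15 members had 16 copy rows. The sequences below, from the GENCODE M21 transcripts on GRCm38, are those of 2 members with a copy row above 1000 TPM in mean level, together with the paralogue *Rps27l* as a contrast. *Rps27* (chr3:90212522-90213651, minus strand) and its protein-coding retrogene *Rps27rt* (chr9:114982366-114982739, minus strand) had the same 252 coding bases, whereas *Rps27l* (chr9:66946086-66949516, plus strand) was 76.2% identical to *Rps27*. *Rpl30* (chr15:34440505-34443640, minus strand) and the processed pseudogene *Gm12191* (chr11:49678710-49679057, minus strand) differed at 1 of 345 bases. *Rpl34* (chr3:130726831-130730398, minus strand) and the processed pseudogene *Rpl34-ps1* (chr6:71124610-71124963, plus strand) differed at 2 of 351 bases. The lines for *Rps27*, *Rps27rt* and *Rps27l* hold the coding sequence without its stop codon. Those of *Rpl34* and *Rpl34-ps1* hold coding bases 87 to 351, counted from the first base of the start codon. Capitals mark the bases at which the members of a pair differ. For *Rps27l* they mark the bases that differ from *Rps27*.
Rps27: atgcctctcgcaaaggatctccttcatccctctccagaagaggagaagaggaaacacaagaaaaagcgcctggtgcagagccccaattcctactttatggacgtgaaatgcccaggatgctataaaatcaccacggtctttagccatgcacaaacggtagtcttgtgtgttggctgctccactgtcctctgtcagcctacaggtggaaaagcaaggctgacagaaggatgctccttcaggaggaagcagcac
Rps27rt: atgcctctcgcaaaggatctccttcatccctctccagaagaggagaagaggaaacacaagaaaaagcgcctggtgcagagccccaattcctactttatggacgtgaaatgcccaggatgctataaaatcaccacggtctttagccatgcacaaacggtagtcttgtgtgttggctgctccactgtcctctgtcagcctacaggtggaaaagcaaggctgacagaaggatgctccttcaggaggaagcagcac
Rps27l: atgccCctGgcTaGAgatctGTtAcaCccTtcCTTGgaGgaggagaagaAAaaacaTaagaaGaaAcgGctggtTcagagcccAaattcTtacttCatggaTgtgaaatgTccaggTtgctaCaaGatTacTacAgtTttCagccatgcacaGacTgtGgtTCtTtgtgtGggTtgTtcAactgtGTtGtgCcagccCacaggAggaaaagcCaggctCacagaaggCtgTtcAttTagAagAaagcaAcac
Rpl34: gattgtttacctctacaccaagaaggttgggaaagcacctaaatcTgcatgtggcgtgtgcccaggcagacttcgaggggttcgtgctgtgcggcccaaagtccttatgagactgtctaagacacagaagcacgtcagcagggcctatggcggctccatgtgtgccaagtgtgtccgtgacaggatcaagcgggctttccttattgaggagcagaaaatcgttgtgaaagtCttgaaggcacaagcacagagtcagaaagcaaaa
Rpl34-ps1: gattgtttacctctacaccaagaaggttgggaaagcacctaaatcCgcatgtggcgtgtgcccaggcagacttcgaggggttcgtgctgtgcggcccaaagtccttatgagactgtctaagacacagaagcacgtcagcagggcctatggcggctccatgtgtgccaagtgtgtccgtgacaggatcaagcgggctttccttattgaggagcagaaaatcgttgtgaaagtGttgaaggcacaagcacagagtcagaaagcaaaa

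The members lay among the most abundant transcripts of both lineages. Of the 81 members, 77 were above 0 in all 6 libraries and 3, *Rpl3l*, *Rpl10l* and *Rpl39l*, were listed at 0 in every one. TPM, the share of a library's transcripts that a gene holds, divides by transcript length, so levels can be compared between genes. The mean over the 6 libraries was at least 1000 TPM for 58 members and at least 100 TPM for 76. Ranked by mean TPM over all rows, none of the top 10 rows was a member, but 19 of the top 50 and 43 of the top 100 were. TPM adds up to the same total in each library, so sequencing depth is unknown and neither a detection limit nor a counting error could be given. In bulk RNA, fewer cells of a type and less RNA per cell cannot be told apart.

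The libraries differed in other respects. Between 9255 and 11858 rows were above 0 per library. Summed levels of 10 fibroblast markers, all above 0 in every library, ran from 29963 to 34229 TPM in SHF and from 40957 to 55255 TPM in CNC, and those of 10 smooth muscle markers from 1494 to 3116 and from 1309 to 2029 TPM, with *Des* at 0 in some libraries. Of 8 endothelial markers, *Pecam1* was the 1 above 0 throughout, and their sum was 51.2 to 581 TPM in SHF and 21.8 to 37.9 in CNC. The sums of 6 cardiomyocyte markers were 87.4 to 115.9 and 0 to 37.9 TPM with *Myl7* at 0 throughout, those of 5 Schwann cell markers 1.5 to 15.3 and 21.4 to 66.1 TPM with 1 of them at 0 throughout, and those of 7 leukocyte markers 0 to 26.9 and 8.0 to 128.8 TPM with *Ptprc* and *Cd3e* at 0 throughout. The 10 dissociation response genes summed to 5493 to 10425 TPM in SHF and to 6067 to 7581 TPM in CNC. The fibroblast, endothelial, cardiomyocyte and Schwann cell sums did not overlap between the lineages. Their part in the ribosomal protein levels was not tested.

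The summed level of the members varied more within a lineage than between lineages. They took 11.3%, 15.0% and 16.1% of TPM in SHF replicates 1 to 3 and 13.1%, 14.1% and 11.8% in CNC replicates 1 to 3. The lowest and the 2 highest libraries were all SHF, and the groups overlapped. The mean was 14.126% ± 2.473 (SD, n = 3) in SHF and 12.997% ± 1.178 (SD, n = 3) in CNC, a difference of 1.13 percentage points (exact two-sided permutation test, p = 0.5). With 3 libraries against 3, this test cannot give a p below 0.1, here and for every single value below, and a p that misses the threshold does not show that the lineages were alike. The difference was 2.52 percentage points without SHF replicate 1, 0.697 without SHF replicate 2, 0.167 without SHF replicate 3 and 0.515 without CNC replicate 3. It was 0.365 after median-of-ratios rescaling. The library with the most rows above 0, SHF replicate 1, had the lowest summed share, and the library with the fewest, SHF replicate 2, the second highest. Across the 6 libraries Pearson's r between the rows above 0 and the summed share was -0.732 (exact permutation p = 0.1056) and Spearman's rho was -0.714 (exact permutation p = 0.1361), the single relation of this kind computed. Without SHF replicates 1 and 2, which lay farthest from the median number of rows, r was -0.48.

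The large subunit genes together exceeded the small subunit genes in every library. Their summed TPM was 1.24, 1.30 and 1.24 times as high in SHF replicates 1 to 3, and 1.29, 1.29 and 1.38 times in CNC replicates 1 to 3. The mean ratio was 1.26 ± 0.033 (SD, n = 3) in SHF and 1.32 ± 0.050 (SD, n = 3) in CNC (exact permutation p = 0.3), with SHF replicate 2 above CNC replicates 1 and 2. A typical large subunit gene was below a typical small subunit gene in all 6 libraries. The log2 ratio of the subunits' median levels was -0.54, -0.31 and -0.37 in SHF and -0.37, -0.36 and -0.24 in CNC, and the difference of the means was -0.085 (exact permutation p = 0.4). It was -0.135 (exact permutation p = 0.1, the smallest possible) when mean log2(TPM + 1) replaced the median, -0.018 without SHF replicate 1, -0.134 without SHF replicate 2 and -0.045 without CNC replicate 3. Leaving out the 5 members that are paralogues by symbol (*Rpl3l*, *Rpl10l*, *Rpl39l*, *Rps27l* and *Rps4l*), the median of the mean levels was 1394 TPM over 46 large subunit genes, which ran from 141 TPM for *Rpl22* to 5118 TPM for *Rpl10*, and 1907 TPM over 30 small subunit genes, which ran from 94.7 TPM for *Rps15a* to 5305 TPM for *Rps4x*. Coding length, from 75 bases for *Rpl41* to 1257 for *Rpl4*, had a Spearman correlation of 0.06 with mean TPM over these 76 genes of 6 shared libraries.

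**Figure D1:**
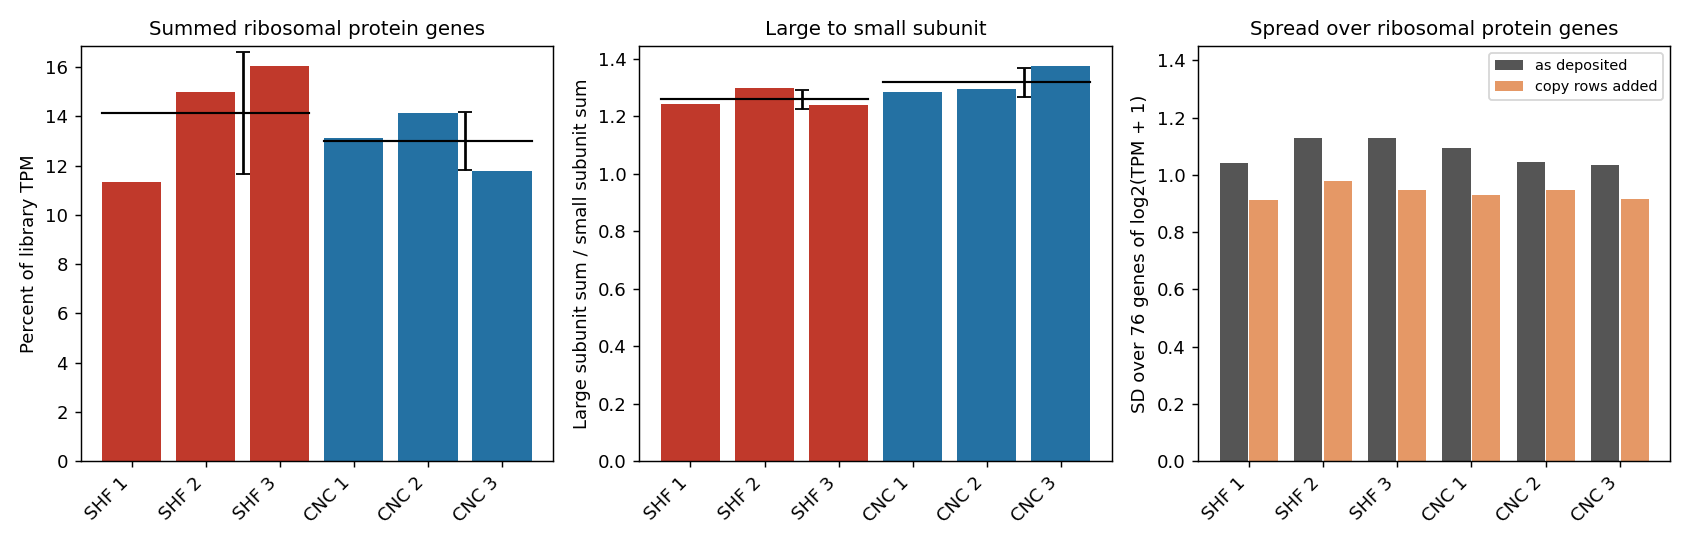
Bars show, for each library, the members' summed share of TPM in percent (left), the ratio of summed large to summed small subunit TPM (middle) and the SD over 76 members of log2(TPM + 1) (right), with SHF in red and CNC in blue. Horizontal lines are lineage means and error bars SD (n = 3). Shares lay between 11.3% and 16.1%, ratios between 1.24 and 1.38, and the SD was lower in all 6 libraries once copy rows were added (orange) than as deposited (grey).

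The 5 highest members were *Rps4x*, *Rpl10*, *Rplp1*, *Rpl41* and *Rps12*. *Rps4x* (chrX:102184941-102189394, minus strand), an X-linked small subunit protein, was at 3973, 6287 and 6509 TPM in SHF replicates 1 to 3 and at 5839, 4991 and 4232 TPM in CNC replicates 1 to 3. *Rpl10* (chrX:74270812-74273135, plus strand), an X-linked protein that joins the large subunit late in its assembly, was at 4439, 6414 and 5996 TPM in SHF replicates 1 to 3 and at 4259, 5462 and 4138 TPM in CNC replicates 1 to 3. For both genes SHF replicates 2 and 3 were the highest libraries and the groups overlapped. *Rps12* (chr10:23785183-23787275, minus strand), of the small subunit, was at 2930.0, 3839 and 4084 TPM in SHF replicates 1 to 3 and at 3649, 4085 and 2743 TPM in CNC replicates 1 to 3, and its groups overlapped as well. *Rpl41* (chr10:128548114-128549305, minus strand), which encodes the smallest ribosomal protein, was at 3438, 3705 and 3897 TPM in SHF replicates 1 to 3 and at 4730.0, 4762 and 4067 TPM in CNC replicates 1 to 3. Every CNC library was above every SHF library for *Rpl41*, by a small margin. In order of mean level these were 5305 TPM for *Rps4x*, 5118 TPM for *Rpl10*, 4342 TPM for *Rplp1*, 4099.6 TPM for *Rpl41* and 3555 TPM for *Rps12*, and neighbours in this order overlapped over the 6 libraries.

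The stalk genes encode the proteins that recruit elongation factors to the large subunit. *Rplp0* (chr5:115559467-115563727, plus strand), the base of the stalk, was at 2115, 2173 and 2289 TPM in SHF replicates 1 to 3 and at 2193, 2539 and 2203 TPM in CNC replicates 1 to 3. *Rplp1* (chr9:61913284-61914542, minus strand), an acidic stalk protein, was at 4157, 3939 and 4733 TPM in SHF replicates 1 to 3 and at 4464, 4277 and 4480.2 TPM in CNC replicates 1 to 3. *Rplp2* (chr7:141447370-141451585, plus strand), its acidic partner, was at 1615, 1876 and 2507 TPM in SHF replicates 1 to 3 and at 1802, 2279.9 and 1411 TPM in CNC replicates 1 to 3. In each library *Rplp1* was the highest of the 3. *Rplp1* and *Rplp0* varied little between replicates, with a pooled SD within lineages of 0.10 and 0.094 on the log2(TPM + 1) scale, against 0.33 for *Rplp2*.

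Among the named members with a role beyond or ahead of the ribosome, mean levels ran from 662 TPM for *Rpl5* to 2386 TPM for *Rpl11*. *Rps27a* (chr11:29545846-29548109, minus strand), made as a fusion with ubiquitin, was at 1924, 2436 and 2203 TPM in SHF replicates 1 to 3 and at 1325, 1786 and 1765 TPM in CNC replicates 1 to 3, every SHF library above every CNC library. *Rps6* (chr4:86854660-86857412, minus strand), the small subunit protein phosphorylated by S6 kinases, was at 1013, 1557 and 1499.8 TPM in SHF replicates 1 to 3 and at 1048, 1103 and 1059.8 TPM in CNC replicates 1 to 3. Its groups overlapped, with CNC in a narrow range. *Rpl11* (chr4:136028265-136053428, minus strand) and *Rpl5* bind 5S ribosomal RNA and, when free, the p53 regulator Mdm2. *Rpl11* was at 2141, 3094 and 3099 TPM in SHF replicates 1 to 3 and at 2084, 1879 and 2019.9 TPM in CNC replicates 1 to 3, and its groups did not overlap. *Rpl5* (chr5:107900502-107909005, plus strand) was at 566, 815 and 749.9 TPM in SHF replicates 1 to 3 and at 541, 622 and 678 TPM in CNC replicates 1 to 3, with groups that overlapped. *Rpl11* was above *Rpl5* in every library although their products enter the ribosome as partners. *Rpsa* (chr9:120127689-120132369, plus strand), also known as a laminin receptor precursor, was at 609, 834 and 765 TPM in SHF replicates 1 to 3 and at 964, 861 and 1067 TPM in CNC replicates 1 to 3, every CNC library above every SHF library.

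The 5 lowest members were the tissue-restricted paralogues *Rpl3l*, *Rpl10l* and *Rpl39l*, then *Rps4l* and *Rps15a*. *Rpl3l*, a paralogue found in striated muscle, was listed at 0 beside *Rpl3*, which was at 1387, 1988 and 2085 TPM in the SHF libraries and 2044, 1705 and 1577 TPM in the CNC libraries. *Rpl10l* and *Rpl39l*, both paralogues of the testis, were listed at 0 beside *Rpl10* and beside *Rpl39*, which was at 2469.8, 3523 and 3732 TPM in the SHF libraries and 2796, 3938 and 2648 TPM in the CNC libraries. *Rps27l*, a p53-responsive paralogue, was at 444, 327 and 368 TPM in the SHF libraries and 454, 245 and 201 TPM in the CNC libraries, below *Rps27* in every library. *Rps4l* (chr6:148354656-148355598, plus strand) is annotated in GENCODE M21 as a transcribed processed pseudogene and was at 24.8, 20.9 and 46.3 TPM in the SHF libraries and 0, 19.9 and 22.9 TPM in the CNC libraries. It was the member with the lowest level above 0, and it was not among the sequences compared for copies. *Rps15a* (chr7:118104372-118116188, minus strand), of the small subunit, was at 69.0, 99.1 and 104 TPM in the SHF libraries and 109, 88.4 and 99.2 TPM in the CNC libraries. *Rpl22* was at 146, 117 and 127 TPM in the SHF libraries and 123, 173 and 161 TPM in the CNC libraries, below its paralogue *Rpl22l1*, which the symbol rule leaves out and which was at 697, 798 and 964 TPM in the SHF libraries and 409.9, 1024 and 755 TPM in the CNC libraries. *Rpl22l1* exceeded *Rpl22* in all 6 libraries, and *Rpl22* is described here because of its low level, seen in the data.

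**Figure D2:**
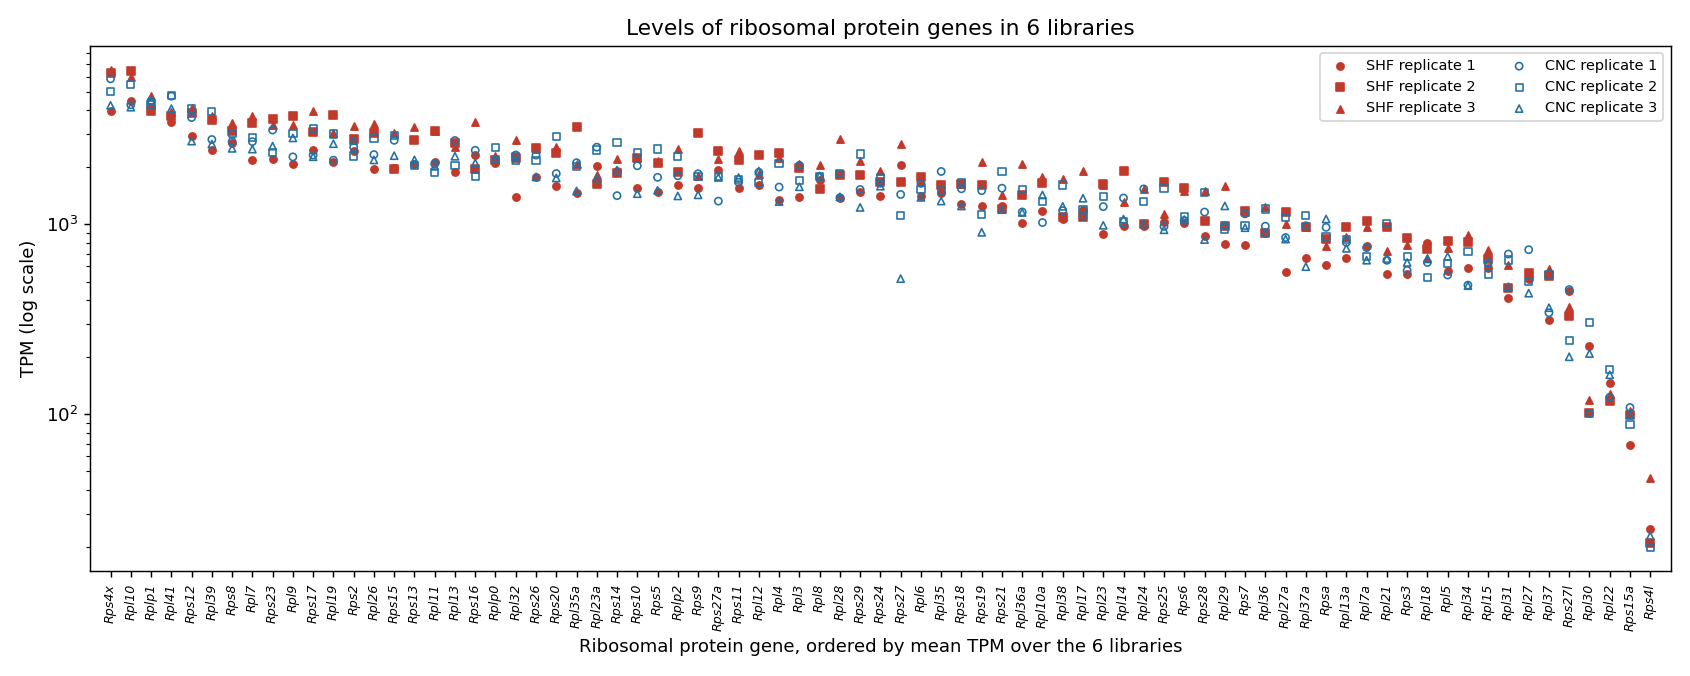
Level in TPM (log axis) of 77 of the 78 members tested, with 1 member not reported here left out, ordered along the horizontal axis by mean over 6 libraries, with 1 filled red symbol per SHF library and 1 open blue symbol per CNC library. The order runs from *Rps4x*, mean 5305 TPM, to *Rps4l*, mean 22.5 TPM, and the 0 of *Rps4l* in CNC replicate 1 cannot be drawn.

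The spread over the members within a library overlapped between the lineages. The SD of log2(TPM + 1) over the 76 members that are not paralogues was 1.04, 1.13 and 1.13 in SHF replicates 1 to 3 and 1.09, 1.04 and 1.03 in CNC replicates 1 to 3. The mean was 1.10 ± 0.049 (SD, n = 3) in SHF and 1.06 ± 0.031 (SD, n = 3) in CNC, a difference of 0.044 (exact permutation p = 0.3). The difference turned to -0.037 (exact permutation p = 0.8) with paralogues included. It was 0.084 by the interquartile range, 0.016 with copy rows added, 0.073 without SHF replicate 1 and 0.029 without SHF replicate 2. Between 55 and 57 of the 76 genes lay within 2-fold of the library's median member, and the highest was 45.1 to 64.7 times the lowest. The lowest gene was *Rps15a* in 5 libraries and *Rpl30* in CNC replicate 1. The rank order of the 76 members was shared between libraries. Spearman's rho between libraries of the same lineage was 0.915 to 0.945 (median 0.916) and between libraries of different lineages 0.901 to 0.934 (median 0.91). Over all 10185 genes tested it was 0.586 to 0.726 within and 0.574 to 0.776 between lineages. These correlations are across genes, which are not independent replicates, and all carry the same base composition and length of each gene in both libraries.

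Adding the copy rows to their members lowered the SD and the ratio of highest to lowest in every library. The interquartile range moved less, from 1.16 to 1.33 over the libraries as deposited to 1.12 to 1.31, and did not fall in SHF replicate 2. The SD became 0.912, 0.978 and 0.948 in SHF and 0.930, 0.947 and 0.915 in CNC, the highest member was then 27.7 to 54.6 times the lowest, and *Rpl22* was the lowest in all 6. This addition was chosen after seeing the data. *Rpl30* and *Rps15a*, the lowest genes as deposited, both have copy rows. *Rpl30*, a large subunit protein, was at 228, 101 and 118 TPM in the SHF libraries and 101, 304 and 209 TPM in the CNC libraries. Its copy row *Gm12191* was at 1215, 2411 and 2220.2 TPM in the SHF libraries and 1582, 2434 and 1362 TPM in the CNC libraries. *Rpl30* thus held between 4.03% and 15.8% of the pair, and the pair together was at 1444, 2512 and 2339 TPM in the SHF libraries and 1682, 2738 and 1570.4 TPM in the CNC libraries (exact permutation p = 1 for SHF against CNC). With its copy row added, *Rpl30* lay within 2-fold of the median member instead of near the bottom.

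For *Rps15a*, 2 processed copies were found, *Rps15a-ps4* at a mean of 72.2 TPM and *Rps15a-ps6* at a mean of 130.4 TPM, and *Rps15a* held 23.0% to 39.9% of the 3 rows. The 3 rows together, at 259, 269 and 453 TPM in the SHF libraries and 289.9, 264 and 249 TPM in the CNC libraries, were still below the median member of each library. *Rpl34*, of the large subunit, was at 588, 809 and 883 TPM in the SHF libraries and 479, 716 and 475 TPM in the CNC libraries, below its copy row *Rpl34-ps1* at 977, 1386 and 1468 TPM in the SHF libraries and 948, 1667 and 1012 TPM in the CNC libraries. The share of the pair held by *Rpl34* was 37.6%, 36.9% and 37.6% in SHF and 33.6%, 30.0% and 32.0% in CNC, every SHF library above every CNC library (exact permutation p = 0.1, the smallest possible). That share was steadier than the levels themselves. *Rpl26*, of the large subunit, held 73.2% to 99.3% of its pair with *Gm15772*, whose own row ran from 25.2 to 1037 TPM. The copy row of *Rps27*, described with the comparison of the lineages, was nearly as high as the member in mean level. The other copy rows were low beside their members, such as *Gm6654* (mean 117.9 TPM) beside *Rps26* (2178 TPM), *Rpl37rt* (7.11 TPM) beside *Rpl37* (447 TPM) and *Wdr89* (7.78 TPM) beside *Rplp2* (1915 TPM). *Rpl14-ps1*, at 283 TPM in SHF replicate 2, was at most 47.2 TPM in the other libraries, beside a mean of 1279 TPM for *Rpl14*. These pairs were picked with their levels in view. How reads were divided between such rows was not tested.

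**Figure D3:**
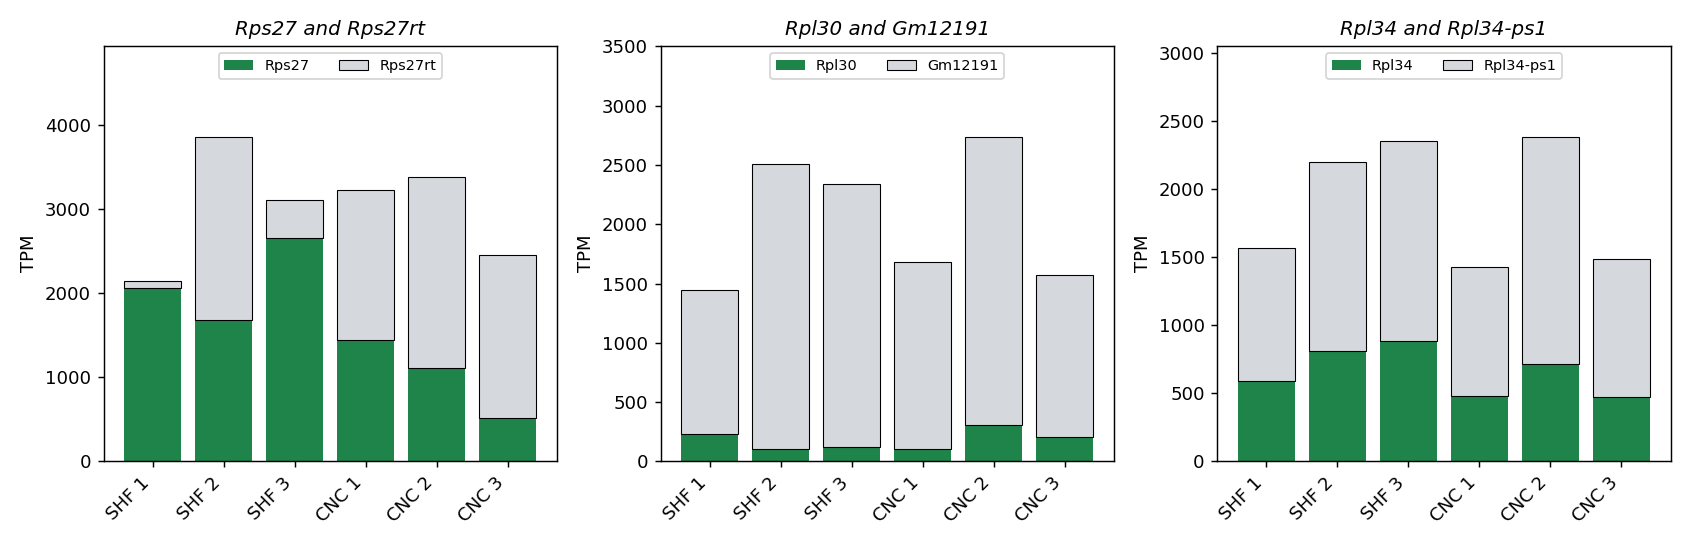
Stacked bars give TPM per library for 3 members (green) and their near-identical copy rows (grey). The height of a bar is the sum of both rows. *Rps27* runs from 21.2% to 95.8% of its bar, *Rpl30* from 4.03% to 15.8% and *Rpl34* from 30.0% to 37.6%.

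Replicate noise of the members was small beside that of the whole matrix and closer to that of other abundant genes. The median pooled SD within lineages, on the log2(TPM + 1) scale, was 0.302 over the 78 members tested and 1.19 over all 10185 genes tested. Pooled SD was lower among abundant genes, as the plot of SD against mean level shows. Over the 76 members with a mean of at least 100 TPM the median was 0.302, and over the 1005 other genes in the same range of mean TPM it was 0.443. At 1000 TPM or above the medians were 0.306 for 58 members and 0.337 for 75 other genes. Of the 76 members, 74 (97.4%) had an SD under 0.5, as did 59.3% of the other genes in the range. These shares are not matched on level, since 58 of the 76 members and 75 of the 1005 other genes were at 1000 TPM or above. Part of the members' noise was common to a library, since the median SD became 0.212 when each library was centred on its median member. The median SD was 0.221 without SHF replicate 1.

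The quietest of the 76 members were *Rplp0* (SD 0.094), *Rplp1* (0.10) and *Rpl41* (0.11). Among the noisiest were *Rpl30* (0.72) and *Rps27* (0.59). Both have an abundant copy row, as has *Rpl34*, whose SD was 0.32. *Rps15a*, with 2 copy rows and a mean below the level required here, had an SD of 0.25. Whether copy rows bear on the SD of a member was not tested. *Rps4l*, also below the level required here, had an SD of 1.88, and 1 of its 6 values was 0.

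The comparison of the lineages asked whether any member was at a different level in SHF than in CNC cells. None was past the threshold. With limma on log2(TPM + 1) and Benjamini-Hochberg adjustment over 10185 genes, 0 of the 78 members tested, and 0% of all genes, had an adjusted p under 0.05, and the smallest adjusted p of a member was 0.629. At an unadjusted p under 0.05 there was 1 member, *Rps27*, beside 597 genes or 5.86% of all tested (2.69% higher in SHF and 3.17% higher in CNC). Without SHF replicate 1 there were 5 of 78 members, *Rpl11*, *Rps13*, *Rps19*, *Rps27* and *Rps6*, beside 778 of the 9217 genes tested in that fit. With eBayes without a trend there were 0 members, beside 601 of 10185 genes. The members' fold changes were narrow. Their quartiles were -0.023 and 0.24 (log2, SHF minus CNC) against -0.71 and 0.71 for all genes, 76 of 78 were within 0.5 of 0 against 37.4% of all genes, and the median standard error was 0.26 against 1.14. The 95% interval of a member's log2 fold change reached a median of 0.57 to either side of the estimate, so a difference of that size lay within the interval of a typical member.

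The members' median log2 fold change was 0.13, against 0.025 for all genes tested, and 54 of 78 (69.2%) were above 0, against 51.2% of all genes. By subunit the median was 0.08 for the large and 0.13 for the small. After median-of-ratios rescaling, which moved the members and all genes down alike, the medians were 0.051 and -0.043 and 42 members were above 0. With quantile normalization they were 0.115 and 0.025, with 57 members above 0, and with library weights 0.061 and 0.042, with 48 above 0. The members' median moved with single libraries. It was 0.248 without SHF replicate 1, against -0.044 for all genes. It was below that of all genes without SHF replicate 2 (0.022 against 0.081), without SHF replicate 3 (0.001 against 0.039) and without CNC replicate 3 (0.025 against 0.059). Libraries of the lineages did not overlap for 7 members (9.0%), against 11.8% of all genes tested. SHF was above for *Rpl7a*, *Rpl11*, *Rpl18*, *Rps27* and *Rps27a*, against 6.11% of all genes, and CNC was above for *Rpl41* and *Rpsa*, against 5.68%. The members' share was thus near or below the background. *Rpl7a* and *Rpl18* are named only because of this outcome.

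*Rps27*, a small subunit protein with a zinc finger, had the lowest unadjusted p. Its level was 2056, 1680.3 and 2660.2 TPM in the SHF libraries and 1437, 1112 and 518 TPM in the CNC libraries, every SHF library above every CNC library. The log2 fold change was 1.16 (SE 0.36, 95% interval 0.36 to 1.95, limma adjusted p = 0.629), and with 1 library left out it lay between 0.73, without CNC replicate 3, and 1.46. The retrogene *Rps27rt*, with the same coding sequence, was lowest in SHF replicates 1 and 3, where *Rps27* was highest, at 90.4, 2177 and 443 TPM in the SHF libraries and 1784, 2273 and 1930.3 TPM in the CNC libraries (log2 fold change -2.16, SE 0.83, limma adjusted p = 0.776). The sum of both was 2146, 3857 and 3104 TPM in the SHF libraries and 3221, 3385 and 2448 TPM in the CNC libraries, 3036 ± 858 TPM (SD, n = 3) in SHF and 3018 ± 500.3 TPM (SD, n = 3) in CNC (exact permutation p = 1). *Rps27* held 95.8%, 43.6% and 85.7% of the sum in SHF and 44.6%, 32.8% and 21.2% in CNC (exact permutation p = 0.2). On the sum the lineages overlapped. Fitted with the copy rows added, the log2 fold change of *Rps27* was -0.018 (limma adjusted p = 0.998) and no member had an unadjusted p under 0.05.

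The other large fold changes toward SHF were those of *Rps4l* and *Rps19*. For *Rps4l* the log2 fold change was 1.92 (SE 1.32, 95% interval -0.999 to 4.83, limma adjusted p = 0.883) on the values given above, with 1 library left out it lay between 0.42, without CNC replicate 1, and 2.71, and it was 3.02 with a pseudocount of 0.1 and 1.17 with one of 5 (limma adjusted p = 0.879 for both). *Rps19*, a small subunit protein mutated in Diamond-Blackfan anaemia, was at 1244, 1604 and 2134 TPM in the SHF libraries and 1504, 1129 and 908 TPM in the CNC libraries. Its groups overlapped, with a log2 fold change of 0.49 (SE 0.28, 95% interval -0.14 to 1.11, limma adjusted p = 0.874). It was 0.29 without SHF replicate 3, 0.31 without CNC replicate 3 and at most 0.68 without any other library. Toward CNC the largest were *Rpl30*, *Rpsa* and *Rpl41*. *Rpl30*, whose libraries overlapped, had a log2 fold change of -0.41 (SE 0.49, limma adjusted p = 0.911), and of 0.076 (limma adjusted p = 0.975) with *Gm12191* added. With 1 library left out it was -0.76 without SHF replicate 1, -0.17 without SHF replicate 2, -0.84 without CNC replicate 1 and -0.054 without CNC replicate 2, and lay between these for the others. *Rpsa* had a log2 fold change of -0.40 (SE 0.25, 95% interval -0.95 to 0.16, limma adjusted p = 0.874). For *Rpl41* it was -0.29 (SE 0.20, limma adjusted p = 0.88), and -0.125 (limma adjusted p = 0.952) after quantile normalization.

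**Figure D4:**
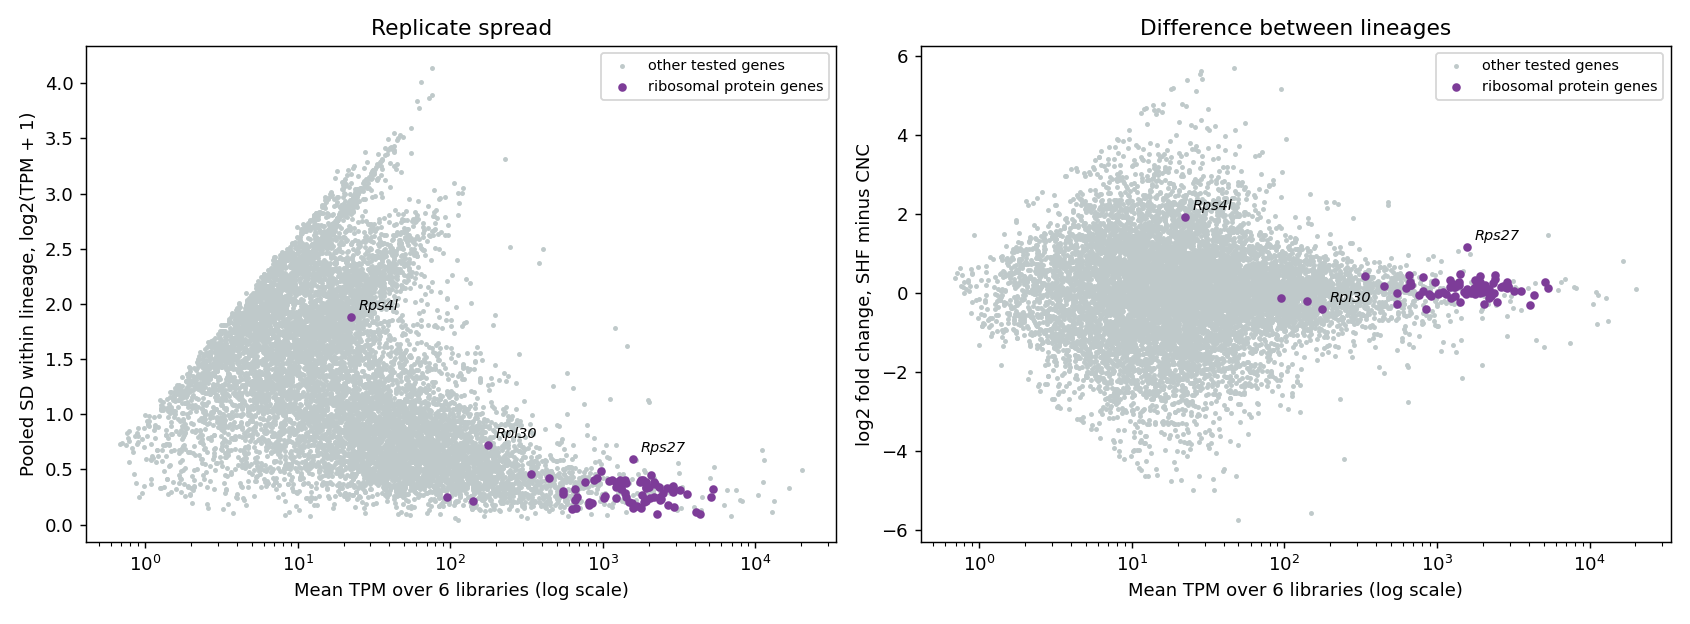
Each point is a gene, with mean TPM over 6 libraries on the horizontal log axis, the 78 ribosomal protein genes in purple and the other tested genes in grey. The left panel plots the pooled SD within lineages of log2(TPM + 1) and the right panel the log2 fold change, SHF minus CNC. The members form a narrow band at high level, with *Rps27* (SD 0.59, log2 fold change 1.16), *Rpl30* (0.72, -0.41) and *Rps4l* (1.88, 1.92) marked.

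Ribosomal protein genes that the symbol rule leaves out had levels within the members' range. Of 8 tested, 0 passed the limma threshold and 1, *Rps27rt*, had an unadjusted p under 0.05, beside 5.86% of all genes tested. Their median log2 fold change was 0.21. *Rps3a1*, of the small subunit, was at 2221, 5285 and 3236 TPM in the SHF libraries and 2801, 3069.5 and 2368 TPM in the CNC libraries, with SHF replicate 2 far above the rest. *Fau*, a fusion of a ubiquitin-like protein with a small subunit protein, was at 1215, 1398 and 2278 TPM in the SHF libraries and 1892, 1398 and 1188 TPM in the CNC libraries. The groups of both genes overlapped. *Gnb2l1*, which encodes the scaffold protein Rack1 of the small subunit, had a mean of 495 TPM, *Rpl36al* one of 642 TPM, *Rpl22l1* one of 775 TPM and *Rpl7l1* one of 76.8 TPM.

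The rest of the translation machinery was compared through lists, and in none did a gene pass the limma threshold. The counts at an unadjusted p under 0.05 stand beside 5.86% of all genes tested. Of 9 elongation factors tested, 0 had an unadjusted p under 0.05, the median log2 fold change was 0.13, and *Eef1a1*, which brings aminoacyl-tRNA to the ribosome, was at 6832, 9254 and 9533 TPM in the SHF libraries and 8167, 8154 and 6860.1 TPM in the CNC libraries. *Eef2*, which drives translocation, had a mean of 1425 TPM and *Eef1g* one of 834 TPM. Of 10 other messenger RNAs known to start with a pyrimidine tract, 1, *Hnrnpa1*, had an unadjusted p under 0.05, the median was 0.043, and *Tpt1*, at a mean of 7934 TPM, *Vim*, at 6515 TPM, and *Npm1*, at 633 TPM, were the highest. *Eef1a1*, *Tpt1* and *Vim* stood above every member in mean level. Of 34 initiation factors the median was -0.10, with *Eif6* toward SHF and *Eif3d* toward CNC at an unadjusted p under 0.05. *Eif1*, at a mean of 2112 TPM, was the highest, and *Eif3f* and *Eif4a2*, at 481 and 459 TPM, followed.

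Genes that build or regulate ribosomes were low and noisy beside the members. Over all genes tested, 5.86% had an unadjusted p under 0.05, 2.69% toward SHF and 3.17% toward CNC. Of 33 ribosome biogenesis genes, *Nop58* and *Ltv1* had an unadjusted p under 0.05, both toward SHF, the median log2 fold change was -0.015 and the median replicate SD 2.11. *Rrp1*, *Nop10* and *Sbds*, at means of 150.1, 124.2 and 104.2 TPM, were the highest. Of 16 growth control genes none had an unadjusted p under 0.05 and the median was 0.096, with *Rheb*, an activator of mTOR, at a mean of 133.8 TPM, *Cdkn1a* at 109.3 TPM and *Eif4ebp1* at 106.5 TPM. Of 76 mitochondrial ribosomal protein genes, which serve a separate ribosome, *Mrpl50* and *Mrpl1* had an unadjusted p under 0.05, both toward CNC, and the median was -0.26. Their median level was 34.6 TPM and their median replicate SD 1.37, with *Mrps21*, *Mrps6* and *Mrpl33* highest at 255, 197 and 191 TPM. Of 7 named ribosomal protein pseudogene rows, *Rpl31-ps12* had an unadjusted p under 0.05 toward CNC, the median was 0.10, and *Rpl34-ps1*, *Rps15a-ps6* and *Rplp2-ps1*, at means of 1243, 130.4 and 80.9 TPM, were the highest. *Hnrnpa1*, *Eif6*, *Eif3d*, *Nop58*, *Ltv1*, *Mrpl50*, *Mrpl1* and *Rpl31-ps12* are named only because of their p.

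Sequence at the transcription start, which the symbol rule did not use, was searched for runs of pyrimidines. RefSeq promoter windows on GRCm38.p6 matched 60 members by symbol, with 72 starts, and the 100 bases from 50 before to 50 after each start were searched. A run of at least 10 pyrimidines (C or T) on the sense strand was present at 47 of 72 starts (65.3%), against 5957 of 32851 (18.1%) over all genes in that table. The median longest run was 10 bases, against 7. The letters CCGGAAG, on either strand, were present at 13 starts (18.1%), against 1711 (5.2%) of all, and TATAAA on the sense strand at 4 (5.6%), against 1116 (3.4%). The reverse complement of CCGGAAG begins with pyrimidines, so a match can overlap a run, and each motif was counted on its own. A match is a description of the letters and not a binding site. The windows of 4 named members, from 50 bases before the start to 30 after, show how the run differs in length and place and are written 5′ to 3′ on the sense strand with the longest run in capitals. The run was at least 17 bases in *Rpl11*, where it reaches the end of the window (chr4:136053364-136053443, minus strand), 11 in *Rps12* (chr10:23787180-23787259, minus strand), 10 in *Rplp2* (chr7:141447601-141447680, plus strand) and 9 in *Rps27* (chr3:90213619-90213698, minus strand).
Rpl11: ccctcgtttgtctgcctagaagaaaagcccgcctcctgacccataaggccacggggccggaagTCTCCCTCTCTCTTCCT
Rps12: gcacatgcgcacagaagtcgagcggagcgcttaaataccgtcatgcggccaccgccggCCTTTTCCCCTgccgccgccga
Rplp2: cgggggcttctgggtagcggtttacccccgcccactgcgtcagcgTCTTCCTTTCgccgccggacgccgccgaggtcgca
Rps27: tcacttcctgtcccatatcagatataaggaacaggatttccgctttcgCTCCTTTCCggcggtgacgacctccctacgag

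Exons of several members overlap those of other rows, and whether the counting used strand is not given in the sources used here, so reads of such pairs cannot be told apart. *Rpl35* (mean 1558 TPM) overlaps *Arpc5l* (81.0 TPM) on the opposite strand and *Rps18* (1494 TPM) overlaps *Vps52* (54.8 TPM). Among the overlapping rows found in GENCODE M21, these and *Snora70* (64.2 TPM), within *Rpl10*, had the highest levels. All were far below the member.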

How the data were processed

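RNA of sorted GFP-positive cells was measured in 3 SHF and 3 CNC libraries, and groups and replicate numbers came from the sample titles. The deposited TPM values were made by the authors with RSEM 1.2.25 and Bowtie2 on mm10, per the submitters' processing notes and the study's methods. The annotation is not given in the sources used here. RSEM divides reads that fit several transcripts by estimation, so rows with near-identical sequence have uncertain TPM.

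From the deposited TPM, 10185 genes that reached 1 TPM in 3 or more libraries were fitted with limma 3.58.1 in R 4.3.3 (lmFit, eBayes with trend) on log2(TPM + 1), SHF minus CNC, with Benjamini-Hochberg adjustment over all of them and a threshold of 0.05. Fold changes on this scale understate those of low genes. Values per library were compared with exact two-sided permutation tests. The fit was tested on simulated data with planted changes of 2 sizes. It recovered both sizes in the median and called none of the smaller changes and a minority of the larger ones. The changed genes were drawn from all genes tested, whose median replicate SD was 1.19 against 0.302 for the members. These calls therefore do not describe the members. Copy rows were found with blastn 2.17.0 on GENCODE M21 transcripts (GRCm38, the assembly called mm10), matched by symbol, and promoters are from RefSeq (GRCm38.p6). Tables and plots used Python 3.11.15, pandas 2.3.3 and matplotlib 3.10.9.

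The members, lists and tests were chosen with earlier results of these data known, and the copy rows after seeing the values. Genes were named by rule: the 5 highest and 5 lowest members, the stalk genes, *Rps27a*, *Rpsa*, *Rps6*, *Rpl5* and *Rpl11*, paralogues by symbol with the parent gene, the 3 noisiest and 3 quietest members of at least 100 TPM, the 3 largest fold changes per direction and those with unadjusted p under 0.05, the 3 highest genes of each list, and all ribosomal protein genes outside the symbol rule. The labels do not say that replicate numbers pair the libraries. Deviations of same-numbered libraries from their lineage means correlated at -0.011, -0.004 and -0.011 over all genes tested. Over the members they correlated at -0.07, -0.18 and 0.132. With 3 libraries a lineage, these values cannot exclude a shared batch. The settings varied were the pseudocount (0.1 or 5), the filter on low genes, the scaling (median of ratios, quantile), the trend in eBayes, the weights of libraries, a replicate block, the measures of the sum, ratio and spread, the adding of copy rows, and the libraries included (each left out in turn). Single-cell libraries of the same study were not analysed here. Some members and sequences are not reported here.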

Additional observations from a re-analysis of the deposited data

How the results depend on the processing

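Past the threshold there were 0 genes as reported and 1, *Gm13305*, with a pseudocount of 5. The count was 0 for the members and for the translation lists under every alternative run. The count of members with an unadjusted p under 0.05, 1 as reported, was 0 with eBayes without a trend, 0 with copy rows added, and 1 to 5 with 1 library left out, the 5 being without SHF replicate 1. In that fit 778 of 9217 genes tested had an unadjusted p under 0.05, against 597 of 10185 as reported. With copy rows added, an alternative chosen after seeing the data, the log2 fold changes of *Rps27* and *Rpl30* turned to -0.018 and 0.076. These sums combine rows by construction, and how reads were divided between them was not tested. Of 96 values of the 6 members whose fold changes are printed, these 2 turned and 94 kept their direction and their side of the threshold. With all members, paralogues included, the difference in spread turned to -0.037 (exact permutation p = 0.8), and that alternative by its construction adds the 3 members at 0 and the low *Rps4l*.

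With a replicate block, 0 genes and 0 members were past the threshold, 1 member had an unadjusted p under 0.05 and the members' median log2 fold change was 0.129. The labels do not say that the replicate numbers pair the libraries, and the block changed no call. With 1 library left out, the members' median log2 fold change was 0.001 to 0.248, the median replicate SD 0.221 to 0.312, the difference in summed share 0.167 to 2.52 percentage points, in the log2 subunit ratio -0.134 to -0.018 and in the spread 0.029 to 0.073. A p that cannot pass the threshold with 3 libraries a side says nothing of stability. TPM keeps no depth, so the precision of single values is known from the replicates only.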
